A study of Mus musculus with 10 samples.

Results

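Fibroblast growth factor (FGF) signalling is represented here by 33 member genes, chosen by name with earlier results of these data known. They are 20 genes of the ligand family, 6 genes of receptors and their co-receptor, 4 feedback regulators and 3 FLRT proteins. All 33 had a gene model among the 21938 protein-coding genes on the main mouse chromosomes. Peaks of H3K27me3, the repressive histone mark laid down by Polycomb repressive complex 2, were examined at their promoters and gene bodies in 6 CUT&Tag libraries. In this assay an antibody directs a transposase to the mark, so that the DNA around it is cut out and sequenced.

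FGF ligands are secreted factors that bind tyrosine kinase receptors together with heparan sulfate or a klotho protein, and the activated receptors signal mainly through RAS and MAP kinases. Sprouty and SPRED proteins are induced by the pathway and dampen it, and the FLRT membrane proteins can bind FGF receptors. The FGF homologous factors (the members Fgf11, Fgf12 and Fgf14, and Fgf13, which is no member) resemble the ligands in sequence but stay inside the cell, where they bind sodium channels. Many FGF ligands guide the early embryo, limbs, brain and inner ear, and their promoters are well-known carriers of H3K27me3 in cells that do not use them.

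Long-term hematopoietic stem cells (LT-HSCs) came from untreated fetal liver at E14.5 and were sorted as LSKCD48-CD150+. WT embryos were compared with embryos of a constitutive targeted knockout of Nfkbia, which encodes IκBα, an inhibitor of NF-κB. There were 3 libraries per genotype, and the other 4 samples of the series, IκBα CUT&Tag, were not analysed here. The knockout acts in every tissue of the embryo rather than in LT-HSCs alone, and neither the embryos nor the experiment behind each library is given in the sources used here, which name more than 1 independent experiment for this assay, so libraries may share an experiment. Because each library is a bulk of sorted cells, a mark present in fewer cells and a weaker mark in every cell cannot be told apart.

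The libraries held 1047 to 6013 peaks. WT replicate 3 stood apart, with 1047 peaks covering 1.90 Mb against 7.61 to 27.8 Mb in the other 5 libraries, and its counterpart KO replicate 3 was the next smallest, with 2325 peaks. Both were read at 50 bp, and replicates 1 and 2 of both genotypes at 75 bp. The deposited signal is not scaled to depth, and the median peak reached a maximum of only 6 to 10 overlapping fragments. Of the label's markers, 0 of 12 HSC and progenitor genes had a promoter peak, as did 0 of 4 erythroid and 0 of 4 macrophage genes. Peaks occurred at 2 of 5 hepatoblast genes (Foxa2 and Prox1, not Alb, Afp or Hnf4a) and 1 of 4 endothelial genes (Kdr, in WT replicate 2). All 9 Hoxc and 9 Hoxd genes had one. Of all coding genes 15.8% had one in 1 or more libraries, so the few cell type markers give no clear check of the label. Nfkbia had no promoter peak in any library, so the mark gives no check of the genotype.

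A promoter was counted as marked when a peak overlapped the 5 kb before, or the first 100 bp after, any transcription start site annotated for the gene. In 1 or more libraries 19 of the 33 members were marked, against 15.8% of all protein-coding genes. In 5 or 6 libraries 13 of 33 were marked, against 6.81%, and 4 members (Fgf3, Fgf5, Fgf9 and Fgf12) were marked in all 6, against 2.65%. Because earlier results of these data were known when the list was chosen, these shares describe it and were not tested. Of the 20 ligand-family genes 14 were marked in at least 1 library, of the 6 receptor genes 3 (Fgfr2, Fgfr3 and Fgfr4), of the 4 feedback regulators 1 (Spry4) and of the 3 FLRT genes 1 (Flrt2). The other 14 members, among them Fgfr1, Spry1 and Spry2, had no promoter peak in any of the 6 libraries. A missing peak says only that the promoter did not reach the top 0.5% of enriched blocks of that library, not that the mark was absent.

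**Figure D1:**
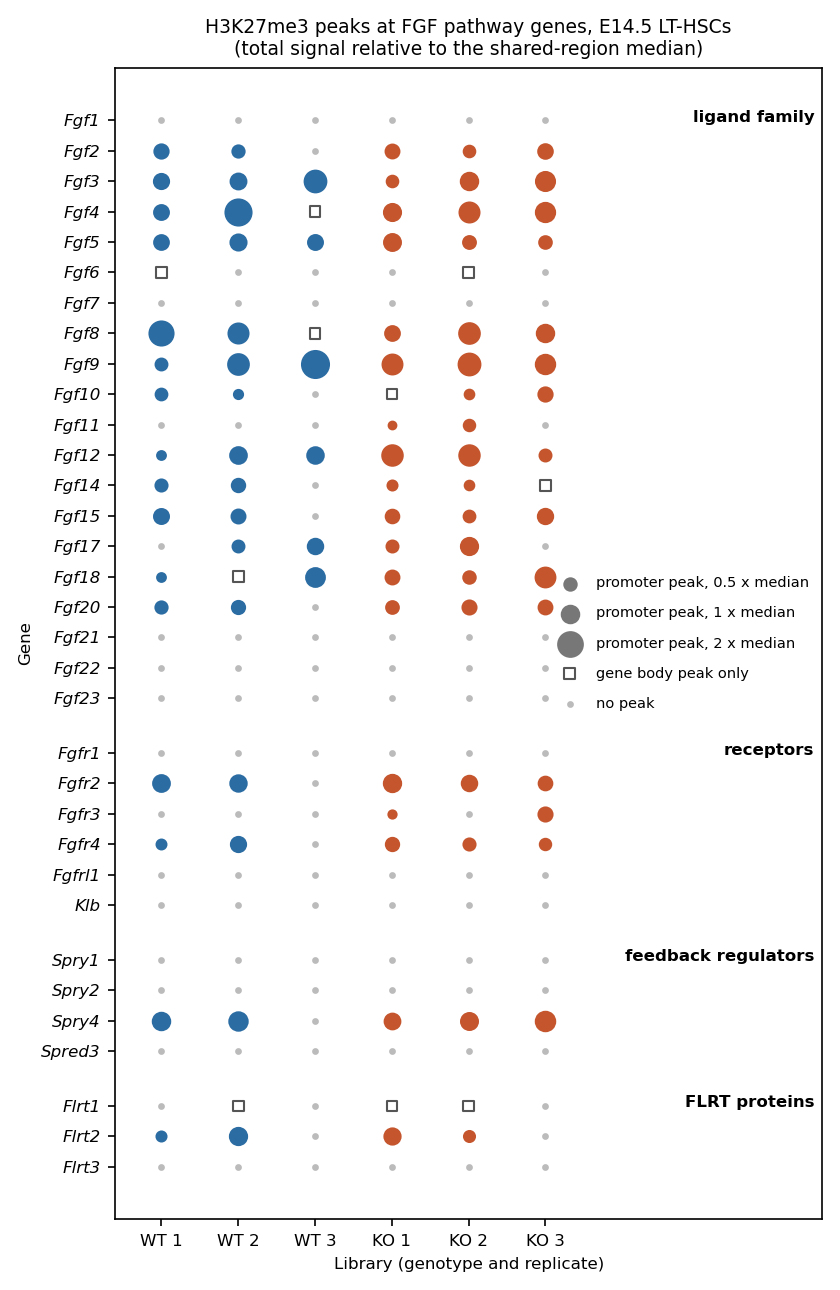
Each row is a member gene and each column a library (blue WT, red KO). The area of a filled point is the total signal of the promoter peaks relative to the library's median over 718 regions called in all 6 libraries, open squares are peaks in the gene body alone (within the RefSeq span for Fgfr2), and small grey points are no peak. The rows of Fgf3, Fgf5, Fgf9 and Fgf12 are filled in all 6 libraries, those of 14 members in none, and WT 3 has the fewest filled points, 6.

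Promoter sequence differed among the members as well. CpG dinucleotides are the known landing ground of Polycomb at many developmental promoters, so the 250 bases upstream of the start given in the RefSeq promoter table (build GRCm38.p6), which holds 25 of the 33 members, are shown for a few contrasting genes, with each CG in capitals. Fgf5, Fgf9 and Fgf18 had a promoter peak in 6, 6 and 5 libraries, Fgfrl1 and Spry2 hold more CG than Fgf9 but had none, and Fgf23 is poor in CpG and had none. The stretches are chr5:98253934-98254183 (+ strand) for Fgf5, chr14:58072436-58072685 (+) for Fgf9, chr11:33147401-33147650 (-) for Fgf18, chr5:108693979-108694228 (+) for Fgfrl1, chr14:105896820-105897069 (-) for Spry2 and chr6:127072652-127072901 (+) for Fgf23. All 6 lie upstream of the named start and, in GENCODE, in no exon. The stretches of Fgf9 and Fgfrl1 lie downstream of a further GENCODE start of the gene, at chr14:58070547 and chr5:108692382. The WT replicate 1 peak of Fgf9 begins at chr14:58073956 and does not reach the stretch shown.
Fgf5: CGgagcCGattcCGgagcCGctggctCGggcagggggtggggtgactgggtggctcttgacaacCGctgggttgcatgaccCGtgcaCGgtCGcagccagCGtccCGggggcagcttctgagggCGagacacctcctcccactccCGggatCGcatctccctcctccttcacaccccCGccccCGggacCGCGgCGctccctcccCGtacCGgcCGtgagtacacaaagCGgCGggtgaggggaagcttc
Fgf9: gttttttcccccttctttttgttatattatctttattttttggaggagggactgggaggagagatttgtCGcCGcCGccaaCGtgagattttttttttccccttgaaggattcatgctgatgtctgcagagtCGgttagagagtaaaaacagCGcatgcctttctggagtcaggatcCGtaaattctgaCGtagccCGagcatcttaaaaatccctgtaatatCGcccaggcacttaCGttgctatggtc
Fgf18: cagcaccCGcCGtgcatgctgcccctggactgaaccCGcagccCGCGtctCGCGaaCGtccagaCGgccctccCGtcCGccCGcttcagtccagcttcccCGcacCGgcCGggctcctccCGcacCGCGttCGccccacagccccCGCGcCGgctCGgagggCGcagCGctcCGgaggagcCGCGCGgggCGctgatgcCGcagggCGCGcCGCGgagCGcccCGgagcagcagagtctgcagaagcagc
Fgfrl1: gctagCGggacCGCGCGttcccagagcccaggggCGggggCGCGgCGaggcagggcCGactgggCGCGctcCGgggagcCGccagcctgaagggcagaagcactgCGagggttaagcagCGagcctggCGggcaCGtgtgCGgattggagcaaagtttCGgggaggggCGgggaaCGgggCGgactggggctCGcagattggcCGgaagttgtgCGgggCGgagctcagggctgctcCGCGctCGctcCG
Spry2: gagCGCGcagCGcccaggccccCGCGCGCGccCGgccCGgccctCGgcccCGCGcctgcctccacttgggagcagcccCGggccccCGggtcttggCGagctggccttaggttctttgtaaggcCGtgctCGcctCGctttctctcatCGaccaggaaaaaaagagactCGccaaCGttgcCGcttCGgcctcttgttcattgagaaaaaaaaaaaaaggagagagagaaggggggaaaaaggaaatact
Fgf23: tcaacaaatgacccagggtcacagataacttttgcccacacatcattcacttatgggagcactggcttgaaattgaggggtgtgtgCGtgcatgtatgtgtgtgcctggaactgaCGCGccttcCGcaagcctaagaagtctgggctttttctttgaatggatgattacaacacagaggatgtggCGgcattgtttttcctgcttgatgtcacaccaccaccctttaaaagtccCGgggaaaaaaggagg

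These stretches hold 24 CG in Fgf5, 11 in Fgf9, 37 in Fgf18, 30 in Fgfrl1, 23 in Spry2 and 6 in Fgf23. Over all 32851 RefSeq promoters the median for the same 250 bases was 6, 92.1% held at least 1 CG and 37.8% held 10 or more. Fgf23 therefore sits at the median, and the other 5 lie among the denser promoters whether marked or not.

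Across the members, a CpG-rich promoter was defined by an observed over expected CpG ratio of at least 0.6 and a GC content of at least 50%, in the window from 250 bp upstream to 50 bp downstream of the start site with the highest ratio. Of the 19 CpG-rich members 13 (68.4%) had a promoter peak in 1 or more libraries, and 11 (57.9%) in 5 or 6. Of the 14 CpG-poor members 6 (42.9%) had one in 1 or more, and 2 (Fgf9 and Fgf20) in 5 or 6. Fgf9 missed the CpG-rich class by its GC content of 42.7% alone (ratio 0.880), and Fgf20 by its ratio of 0.594 alone (GC content 67.3%). Among all coding genes the shares in 1 or more libraries were 20.6% of CpG-rich and 10.3% of CpG-poor genes, and those in 5 or 6 libraries 10.04 and 3.095%. In both classes the share of members marked was above that of coding genes at large, and in both sets CpG-rich genes were marked more often. The 13 members marked in 5 or 6 libraries had a median CpG ratio of 0.842, against 0.806 for the 1493 coding genes marked as often. The 14 unmarked members had a median of 0.688, close to the 0.666 of unmarked coding genes. The 6 members marked in 1 to 4 libraries had a median of 0.582, below both other member groups, against 0.714 for coding genes marked as often. Fgf22, Fgfr1, Fgfrl1, Spry1, Spry2 and Spred3 were the 6 CpG-rich members with no promoter peak. These values describe the list and were not tested.

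**Figure D2:**
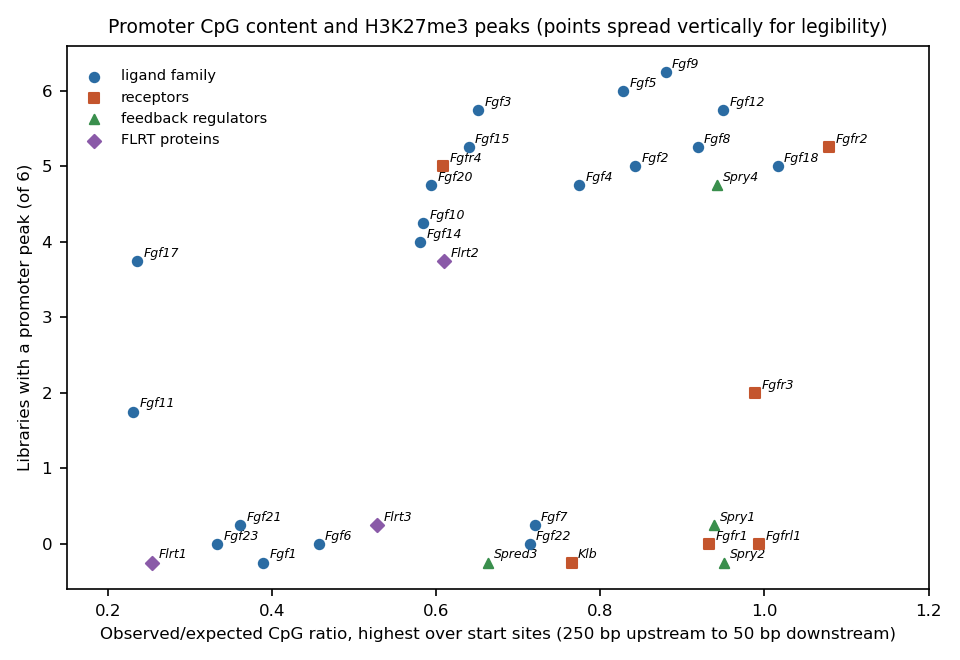
The horizontal axis is the observed over expected CpG ratio at the start site with the highest ratio, the vertical axis the number of the 6 libraries with a promoter peak, with points spread slightly for legibility and shaped by role. The upper right holds CpG-dense marked genes such as Fgf18 and Fgfr2, and the lower right the dense unmarked genes Fgfr1, Fgfrl1, Spry1 and Spry2.

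Among the 17 secreted ligands, 11 had a promoter peak in at least 1 library and 9 in 5 or 6. Marks fell on genes of every subfamily. In the FGF8 subfamily Fgf8, Fgf17 and Fgf18, growth factors of midbrain, limb and skeleton, were all marked, and so were both members of the FGF9 subfamily, Fgf9 and Fgf20. The FGF4 subfamily had 2 of 3 marked (Fgf4 and Fgf5, not Fgf6), the FGF7 subfamily 2 of 4 (Fgf3 and Fgf10, not Fgf7 or Fgf22), and the FGF1 subfamily Fgf2 but not Fgf1. Of the endocrine ligands, which act as hormones on bile acid, glucose and phosphate metabolism, Fgf15 was marked and Fgf21 and Fgf23 were not.

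Fgf9, a mitogen of the embryonic gonad and lung, had a region at chr14:58068131-58080698 that spanned its 4 annotated start sites. Relative to the library's median over the shared regions, total signal there was 0.459 in WT replicate 1, 1.40 in replicate 2 and 2.4 in replicate 3, and the KO libraries, here and throughout in the order of replicate number, had 1.3, 1.56 and 1.23. The WT libraries spread from below to above all 3 KO libraries, so the groups overlapped. The WT replicate 3 value came from the lowest unscaled total of the 6, 11185, divided by that library's low median of 4669.5.

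Fgf8, the organiser signal of the midbrain and limb ridge, carried a region of 14.7 kb called in all 6 libraries, at chr19:45732724-45747385, over all 5 of its start sites. The WT libraries gave a relative signal of 1.90, 1.77 and 0.792, and the KO libraries one of 1.48, 1.76 and 0.989. The lowest value of either genotype was replicate 3, and the genotypes overlapped. The lowest relative signal of any marked coding gene was 0.718 in WT replicate 3, against 0.183 to 0.418 in the other libraries. The WT replicate 3 value at Fgf8 therefore lay near the floor of that library. Peaks covered 89.7, 79.3 and 16% of the gene and its promoter in WT, and 87.5, 86.8 and 29.5% in KO. In WT replicate 3 the only peak lay inside the gene.

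Fgf5, a regulator of hair growth and a marker of the early epiblast, was covered at its start at chr5:98249581-98259478. Relative signal was 0.709, 0.845 and 0.726 for WT, with 0.935, 0.537 and 0.519 for KO. KO replicate 1 was the highest of the 6 and the other KO libraries the lowest, on either side of the WT values. The WT replicate 3 peak stood at percentile 2.58 of its library, at the floor given for Fgf8, so a lower value could not have been called there.

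Fgf3, Fgf4 and Fgf15 lie head to tail within 62.9 kb of chromosome 7 (chr7:144838083-144900953, + strand). Fgf3 and Fgf4 are ligands of inner ear, tooth and early embryo, and Fgf15 is the intestinal hormone that restrains bile acid synthesis. Each had its own block of mark rather than 1 domain over the cluster: peaks covered 20.03, 30.5 and 6.31% of the interval in WT and 25.2, 29.9 and 19.2% in KO. The block at the Fgf3 start (chr7:144836700-144842838) was called in all 6 libraries, with a relative signal of 0.750, 0.820 and 1.55 in WT and 0.655, 0.721 and 1.19 in KO. Values of the genotypes overlapped. Counting instead all peaks that touch the promoter window, and no others, KO had 0.436, 0.991 and 1.19, so KO replicate 2 moved from below WT replicate 2 to above it.

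The block at the start that RefSeq gives for Fgf4 (chr7:144857877-144867857) was also called in all 6 libraries. WT gave a relative signal of 0.719, 1.41 and 0.730, and KO 0.736, 1.31 and 1.21. Low and high values occurred in both genotypes, and the WT replicate 3 value lay near the floor of that library. In WT replicate 3 this peak fell inside the gene, downstream of the promoter window. GENCODE gives Fgf4 a further start upstream that lies within the reach of the Fgf3 block, so 2 libraries counted part of that block for Fgf4 too.

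Fgf15 (chr7:144894212-144900661) was marked in 5 libraries, with promoter peaks at 0.732 and 0.634 of the median in WT replicates 1 and 2, and at 0.601, 0.451 and 0.765 for KO. The ranges of the genotypes overlapped. WT replicate 3 had no peak over Fgf15.

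**Figure D3:**
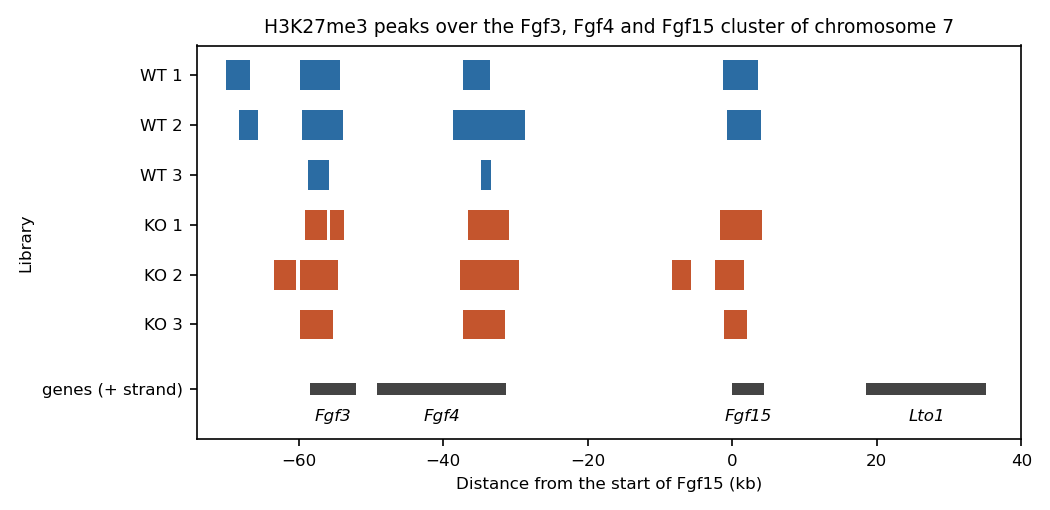
Bars are peaks of each library (blue WT, red KO) over the Fgf3, Fgf4 and Fgf15 cluster, placed by distance from the start of Fgf15 in kb, with gene models in grey. The blocks at Fgf3 and Fgf4 appear in all 6 libraries and the block at Fgf15 in all but WT 3. No called peak lies between the blocks except 1 of KO 2 upstream of Fgf15.

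The remaining secreted ligands with a promoter peak in 5 libraries were Fgf2, Fgf18 and Fgf20. Fgf2, a broadly acting mitogen of vessels and mesenchyme, was marked at chr3:37346938-37352221, with a promoter signal of 0.661 and 0.488 in WT replicates 1 and 2 and of 0.628, 0.437 and 0.693 in KO. Fgf20, expressed in inner ear and brain, gave 0.484 and 0.567 for the same WT libraries and 0.526, 0.644 and 0.625 for KO, at chr8:40282468-40287722. Both lacked a peak in WT replicate 3, and their genotypes overlapped.

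Fgf18, a regulator of cartilage and bone, was marked at chr11:33143206-33148831 in WT replicates 1 and 3 and in all 3 KO libraries. Its promoter peaks had 0.25 and 1.15 of the median in WT and 0.628, 0.507 and 1.29 in KO, and with a second peak of the same region WT replicate 1 had 0.751. WT replicate 2, the library with the most peaks, had peaks inside this gene but none at its promoter. Fgf10 and Fgf17 were marked in 4 libraries each, at 0.272 to 0.660 and 0.462 to 0.966 of the median. Fgf10 was called in 2 libraries of each genotype, and its KO replicate 1 peak began downstream of the promoter window. The Fgf17 block also covers the promoter of its neighbour Dmtn, so it cannot be assigned to Fgf17 alone.

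All 3 homologous factors among the members were marked, in 6 (Fgf12), 4 (Fgf14) and 2 (Fgf11) libraries. Fgf12 spans 593 kb and carried separate blocks at several starts. The block at chr16:28442382-28450582 was called in all 6 libraries, the block at chr16:28563544-28567448 in 4 (WT and KO replicates 1 and 2), and the block at the outermost start, chr16:28751758-28754412, in KO replicates 1 and 2 only. At the block called in all 6 libraries WT had a relative signal of 0.463, 0.535 and 0.892, and KO one of 0.854, 0.652 and 0.465. The ranges of the genotypes were nearly the same. Fgf14, with 699 kb the longest gene of the family, had a block at each of its 2 starts, called in 4 and 5 libraries, the second mostly just inside the gene and so within the promoter window in 1 library alone.

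Of the 6 receptor genes, Fgfr2 and Fgfr4 were marked in 5 libraries each, Fgfr3 in 2, and Fgfr1, Fgfrl1, which lacks a kinase domain, and the endocrine co-receptor Klb in none. Fgfr2, the receptor of epithelia, had a block at chr7:130258191-130267684 with promoter signals of 0.919 and 0.878 in WT replicates 1 and 2 and of 0.979, 0.779 and 0.609 in KO. Fgfr4, the receptor of liver that answers to Fgf15, had a block at chr13:55149778-55157226 with 0.321 and 0.754 for these WT libraries and 0.576, 0.477 and 0.423 for KO. WT replicate 3 had neither. In Fgfr4 the KO values fell between the 2 WT values, and in Fgfr2 KO replicate 1 was the highest and KO replicate 3 the lowest. The nearest peak to any start of Fgfr1 lay 473 kb away. The GENCODE model of Fgfr2 spans 2961 kb and takes in other genes, among them Htra1 and Hmx2, against 104 kb in RefSeq, so the plot of members by library reads gene body peaks of Fgfr2 within the RefSeq span.

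Spry4 was the 1 feedback regulator with a peak, at chr18:38594980-38606525. Over the whole region relative signal reached 0.994 and 1.11 in the first 2 WT replicates and 1.01, 1.39 and 1.24 in KO, again with no peak in WT replicate 3. The lowest value was WT and the highest KO, and the genotypes overlapped. KO replicates 1 and 2 each had a further peak inside the gene, and their peaks at the promoter alone gave 0.810 and 0.941, below both WT values. Spry1, Spry2 and Spred3, which like Spry4 restrain the RAS and MAP kinase branch, had no peak at promoter or gene body. The closest peak to their start sites lay 41.6, 1421 and 95.1 kb away.

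Of the FLRT genes, Flrt2 had a promoter peak in replicates 1 and 2 of both genotypes, at 0.327 to 0.971 of the median, and Flrt3 had none. Flrt1 depended on the gene model. At its GENCODE start no library had a promoter peak, and 3 libraries had a peak inside the gene. RefSeq lists a transcript of Flrt1 that starts far upstream, at chr19:7166183, and a region there (chr19:7157159-7169921) was called in all 6 libraries, with a relative signal of 0.856, 0.946 and 1.46 for WT and 0.911, 1.47 and 1.58 for KO. The genotypes overlapped. Summed instead over the peaks that touch the promoter window of any GENCODE or RefSeq start of Flrt1, relative signal was 0.856, 1.22 and 1.46 for WT and 1.25, 0.577 and 1.58 for KO, where KO replicate 2 was the lowest of the 6. This region lies inside Macrod1, which is read from the opposite strand, so it cannot be assigned to Flrt1 alone. With RefSeq start sites added for all genes, an alternative chosen after the data were seen, 20 of 33 members were marked in at least 1 library, against 16.1% of coding genes, and 5 in all 6 libraries, against 2.77%.

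For the 14 members without a promoter peak, the distance from the nearest start site to the nearest peak of any library ranged from 3.51 kb (Fgf6) to 1421 kb (Spry2), with a median of 88.7 kb, and it was over 40 kb for 11 of them (78.6%). For the 18286 protein-coding genes with no promoter peak, on chromosomes with any peak, the median was 174 kb and 82.6% were over 40 kb, so the members' share is near this background. Fgf6, a ligand of skeletal muscle, had a peak inside the gene in WT replicate 1 and KO replicate 2. Counting promoter or gene body, 21 of 33 members had a peak in at least 1 library, against 17.5% of coding genes, the additions being Fgf6 and Flrt1. These counts use the GENCODE span, which for Fgfr2 takes in peaks of other genes. The means were 44.4% in WT and 56.6% in KO, beside 10.4 and 12.4% of coding genes. Without WT replicate 3 the gap of 12.1 points fell to 3.54. With RefSeq spans the member means were 45.5% and 57.6%, again with 21 members.

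Total signal at member promoters lay within the range of other marked genes. It grows with the width of a block as well as its height. In each library, the median relative signal of the 6 to 18 marked members came to 0.573, 0.833 and 1.02 for WT and 0.628, 0.591 and 0.693 for KO, beside 0.636, 0.547 and 0.961 and 0.556, 0.601 and 0.725 for all coding genes with a promoter peak. The highest relative total of a member was Fgf9 in WT replicate 3, at 2.4, and the lowest Fgf11 in KO replicate 1, at 0.195. Unscaled, that Fgf9 total was 11185, the lowest of the 6 libraries. It was divided by a median of 4669.5, against 16052.5 to 36608.5 in the other libraries, so the 2.4 is no sign of the strongest mark. The highest coding gene of each library reached 4.4 to 6.13.

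To ask whether loss of IκBα went with a different mark at FGF genes, the genotypes were then compared. The WT libraries had a promoter peak at 16, 16 and 6 of 33 members (10.6, 12.9 and 3.46% of coding genes), and the KO libraries at 18, 18 and 15 (12.9, 12.2 and 8.06%). The means were 38.4% ± 17.5 of members in WT and 51.5% ± 5.25 in KO (SD, n = 3), a difference of 13.1 points that is smaller than the SD of WT. By same-numbered pairs KO was the higher in 3 of 3, by 2, 2 and 9 genes, and the SD of the paired differences was 12.2 points. The size rested on WT replicate 3: without that library it was 3.03 points, and within the 75 bp libraries alone 6.06 points. For all coding genes the mean was 9.004% (SD 4.94) in WT and 11.04% (SD 2.61) in KO, with KO the higher in pairs 1 and 3 and the lower in pair 2.

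By role, promoter peaks were found at 12, 12 and 6 ligand-family genes in WT and at 13, 14 and 11 in KO. Receptors had 2, 2 and 0 in WT and 3, 2 and 3 in KO. Spry4 alone accounted for the feedback count, 1 in every library except WT replicate 3, and Flrt2 alone for the FLRT count. Without WT replicate 3 the ligand counts of the genotypes overlapped, and the receptor counts shared the value 2.

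**Figure D4:**
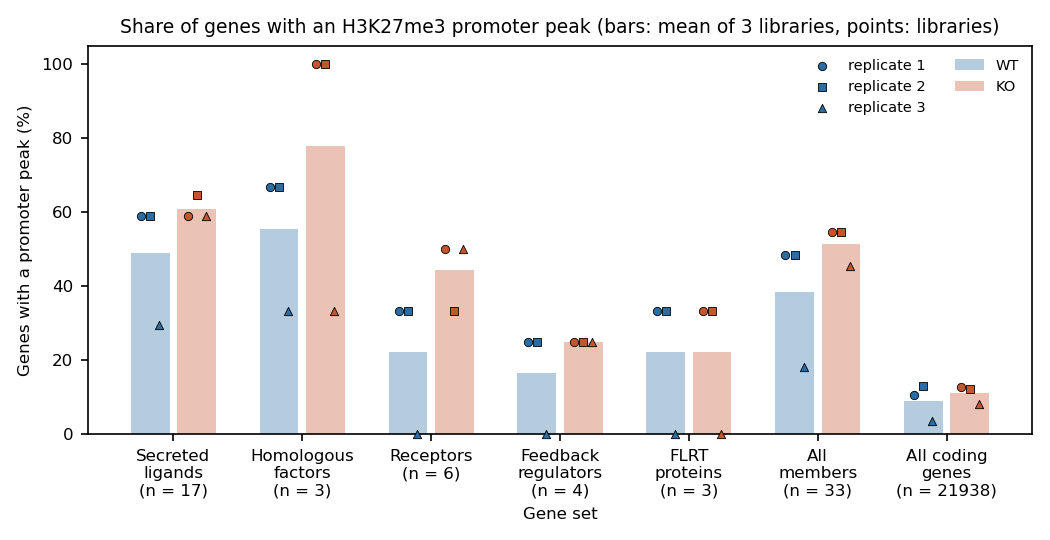
Bars are the mean share of genes with a promoter peak over the 3 libraries of a genotype (blue WT, red KO), and points are the single libraries (circle, square and triangle for replicates 1, 2 and 3). In WT the replicate 3 triangle is the lowest point of every set, at 18.2% of all members against 48.5% for both others, and member shares lie above those of all coding genes in the other 5 libraries for every set but the FLRT proteins in KO 3.

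Only Fgf11 and Fgfr3 had a promoter peak in at least 2 more KO than WT libraries, against 1.06% of coding genes, and 0 members had the reverse, against 0.228%. Fgf11, a homologous factor, was called in KO replicates 1 and 2, at 0.195 and 0.427 of the median, with a maximum of 7 and 8 fragments (chr11:69801611-69806250). That block also reaches the promoter of Tmem102. Fgfr3, the receptor that limits growth of cartilage, was called in KO replicates 1 and 3, at 0.219 and 0.649, with a maximum of 7 fragments in both (chr5:33721513-33725485). By total signal these peaks stood at percentiles 5.93 and 50.3 (Fgf11) and 16.5 and 50.1 (Fgfr3) of the peaks of their library, low in KO replicate 1 and at the middle in the other library. No WT library had a peak over either gene, and the level beneath the peak threshold was not tested.

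The peak files give a signal in every library only where all 6 had a peak, and genome-wide signal tracks were not used here. Log2 total signal, centred on the library's median, was fitted with limma over the 718 such regions, with Benjamini-Hochberg adjustment. Of these, 0 (0%) differed at an adjusted p of 0.05, and 8 (1.11%) at an unadjusted p of 0.05. None of the member regions was among the 8. The log2 difference of KO from WT was -0.25 ± 0.39 (SE) at Fgf3, 0.22 ± 0.39 at Fgf4, -0.25 ± 0.34 at Fgf5, -0.015 ± 0.41 at Fgf8, 0.23 ± 0.53 at Fgf9, 0.076 ± 0.38 at Fgf12 and 0.28 ± 0.36 at the upstream Flrt1 region, each with a limma adjusted p of 0.993. Every difference was smaller than its standard error. The WT replicate 3 values at Fgf4, Fgf5 and Fgf8 lay near that library's floor, which limits these differences. The exact two-sided permutation test over 20 assignments, which cannot fall below p = 0.1, gave 0.5 for Fgf3, 0.8 for Fgf4, 0.4 for Fgf5, 0.9 for Fgf8, Fgf9 and Fgf12, and 0.4 for Flrt1. With standard errors of this size a change of about the same magnitude could not be detected at these genes. The genotypes overlapped at all 7 regions. By same-numbered pairs KO was the higher in 0 of 3 at Fgf3, in 3 of 3 at the upstream Flrt1 region and in 1 or 2 of 3 at the others. Over the 718 regions KO lay wholly above WT in 2.23% and wholly below in 4.46%.

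**Figure D5:**
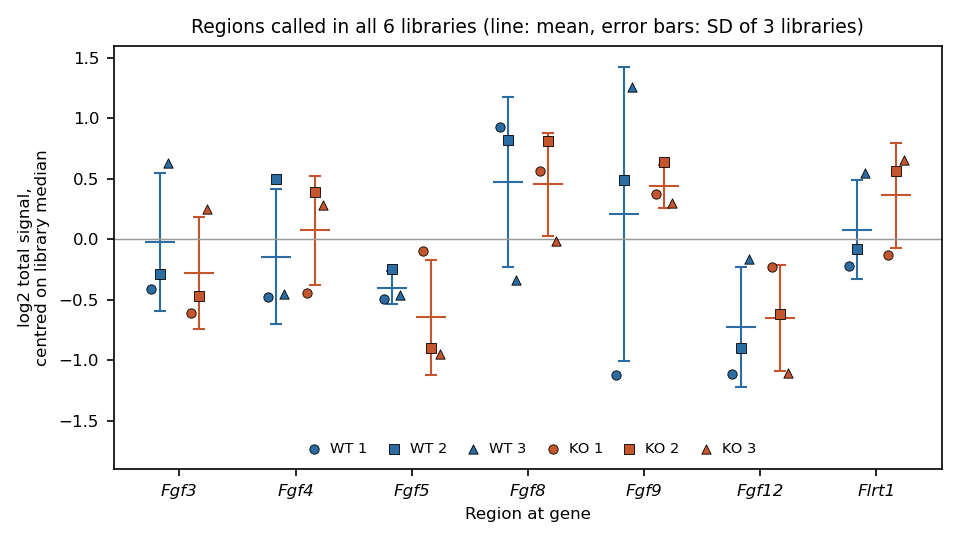
Points are log2 total signal of the 6 libraries, centred on each library's median over 718 regions (blue WT, red KO, shapes for replicates), at the 7 member regions called in all of them, with the mean as a line and the SD of 3 libraries as error bars. The genotypes overlap at every region, and Fgf9 has the widest WT spread, from -1.12 to 1.26.

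Within the 75 bp libraries, 2 per genotype, more members could be compared, since WT replicate 3 had lacked their peaks. Of 2555 regions called in all 4 libraries, 0 passed at the adjusted p of limma and 119 (4.66%) at an unadjusted p of 0.05, with no member region among them. The log2 difference of KO from WT was -0.027 ± 0.33 (SE) at Fgfr2, 0.10 ± 0.45 at Fgfr4, 0.19 ± 0.32 at Spry4, -0.10 ± 0.37 at Fgf2, -0.37 ± 0.34 at Fgf15 and 0.17 ± 0.31 at Fgf20. The widest differences among members there were 0.84 ± 0.52 at Fgf9 and 0.60 ± 0.33 at Fgf12, with adjusted p of 0.996 in limma.

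The wider pathway was read from a list of 44 further genes with a coding model. Promoter peaks in 1 or more libraries occurred at 11 of them, against 15.8% of coding genes, and 8 were marked in 2 or more libraries, against 13.4% of coding genes. The 9 RAS and MAP kinase genes had none, and of the 9 adaptor genes, which link receptors to RAS, 1 (Frs3) had a peak in 1 library. Of the 4 target genes, Etv4, an ETS factor induced by FGF, was marked in all 6 libraries, while Etv1, Etv5 and the MAP kinase phosphatase Dusp6 were not marked. Of the 14 heparan sulfate genes 6 were marked, among them Sulf2, a sulfatase that trims heparan sulfate, in all 6 libraries, Gpc1 in 5 and Sdc4 in 4. Kl, the klotho co-receptor of Fgf23, was marked in 5 libraries, Il17rd, a membrane inhibitor of the pathway, in 4, and Fgf13, a homologous factor, in 3. Sdc3, a syndecan, was marked in all 3 WT and in 0 KO libraries, at 0.319, 0.208 and 0.734 of the median, a pattern of at least 2 more WT than KO libraries found in 50 coding genes. It is no member, and the values of its KO libraries beneath the threshold were not tested.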

How the data were processed

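H3K27me3 CUT&Tag peaks of 3 WT and 3 IκBα KO libraries were analysed. The authors trimmed reads (Trim Galore 0.6.6), aligned them to GRCm38 (Bowtie2 2.4.4, mapping quality of at least 20), removed duplicates and called peaks per library with SEACR 1.3 (stringent, no IgG, top 0.5%). The deposited total signal and maximum signal per peak carry no scaling to depth. The peak files hold no read totals, and those the study lists per library, fewest in replicate 3 of both genotypes, were not used here. The blacklist used is not given in the sources used here.

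Gene models came from GENCODE M21 (Spry3 had no coding model) and sequences from RefSeq (GRCm38.p6). Peaks counted from 1 bp of overlap. Total signal was divided by the library's median over 718 of 6953 merged regions, those called in all 6 libraries. limma 3.58.1 (R 4.3.3) was fitted over these regions, after a check on simulated data. Python 3.11.15 and numpy 2.4.6 were used. Members and lists were chosen with earlier results of these data known. Members were described singly when their promoter had a peak in at least 5 libraries, in at least 2 more libraries of 1 genotype, or a region called in all 6 libraries. Pathway genes were named from 2 libraries on, and Frs3 and the unmarked pathway genes were chosen after their values were seen.

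Groups and replicate numbers came from the labels. Over the 718 regions, libraries of the same number deviated together from their group means (r of 0.277, 0.315 and 0.479 for replicates 1 to 3). The numbers were therefore taken as pairs, and a replicate block was fitted as an alternative. A correlation of 0.270 was also found for WT replicate 2 with KO replicate 1. p-values measure only the spread between these libraries. Alternatives changed the peak threshold, overlap, promoter window, start sites, scaling, measure and libraries.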

Additional observations from a re-analysis of the deposited data

How the results depend on the processing

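Several limits lie in the libraries: WT replicate 3 holds few peaks, the median peak had a maximum of 6 to 10 fragments, and signal is known in every library only for regions called in all 6. Why WT replicate 3 holds few peaks was not tested. With missing calls set to a floor, 3626 regions called in at least 3 libraries gave 0 at an adjusted and 56 at an unadjusted p of 0.05 by limma. The share of members with a promoter peak was higher in KO than in WT under every alternative run, although its size followed WT replicate 3. With peaks above the library median alone, the promoter means were 26.3% in WT and 40.4% in KO, and for promoter or gene body the means were 29.3% in WT and 42.4% in KO. With an equal number of top peaks per library, the promoter means were 16.2% in WT and 21.2% in KO, and for promoter or gene body 20.2% and 23.2%, with 13 instead of 21 members in at least 1 library. With RefSeq gene spans, added after the data were seen, these promoter or gene body means were 31.3% and 43.4% for peaks above the median, and 21.2% and 24.2% with 14 members for equal numbers. The share of all coding genes was not computed at these peak thresholds, so these member shares and counts have no background beside them. With RefSeq start sites added, a choice made after the data were seen, the promoter means were 41.4% and 54.5%, the addition being Flrt1.

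No region passed the adjusted threshold of limma under any of 12 alternatives, and between 0 and 119 passed an unadjusted p of 0.05. The replicate block, which pairs same-numbered libraries, gave 0 regions at an adjusted p of 0.05 and 24 at an unadjusted one, with a smallest adjusted p of 0.907, and changed no call. Scaling by the total signal of all peaks moved the median log2 difference of all regions to -0.26, and with it Fgf12 to -0.16, Fgf4 to -0.021 and Fgf9 to -0.012. Maximum signal turned Fgf9 to -0.061. Signal per covered base gave 0.025 at Fgf3, -0.15 at Fgf4 and 0.15 at Fgf8. The 75 bp libraries alone gave -0.023 at Fgf4. Leaving out each library in turn gave ranges of -0.50 to 0.083 at Fgf3 (positive without WT replicate 3), 0.062 to 0.55 at Fgf4, -0.52 to -0.076 at Fgf5, 0.14 to 0.53 at the upstream Flrt1 region, -0.41 to 0.24 at Fgf8 (positive without WT replicate 1 or 2 or KO replicate 3), -0.43 to 0.77 at Fgf9 (negative without WT replicate 1) and -0.14 to 0.37 at Fgf12 (negative without WT replicate 1 or 2 or KO replicate 1). The causes of these reversals were not tested.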
